A study of Mus musculus with 2 samples.

Results

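Imprinted genes were examined in total RNA-seq of newborn mouse heart. The members are 40 symbols of genes known to be imprinted in the mouse or to lie inside an imprinted cluster. They are defined by a list of names and were matched to the deposited rows through the GENCODE gene annotation. Of the 40, 39 were matched among 43346 genes. Peg13, a paternally expressed noncoding RNA inside Trappc9, could not be matched to a row and was not analysed here.

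The study holds 1 group, hearts of healthy mice of strain B6NTac;B6NCrl/Lap at postnatal day 0, with males and females pooled. The 2 biological replicates are separate isolates of heart tissue. Replicate 1 is a pool of 15 mice, replicate 2 is a pool whose size the labels do not give, and both carry the same donor label. No treatment, mutation or transgene is listed, so the comparisons possible are between genes, between transcripts and between the replicates. Each library is RNA of more than 200 nucleotides after removal of ribosomal RNA, sequenced as read pairs.

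Expected counts, the estimated read pairs of each gene, summed to 69946215 in replicate 1 and 73615802 in replicate 2. Levels are given in TPM, a transcript abundance in which counts are divided by length and scaled to a fixed total, so that genes can be compared within a library. Heart muscle markers (Tnnt2, Myh6, Actc1, Nkx2-5, Ryr2) were detected in 5 of 5 and summed to 7612 and 7536 TPM. Markers of nerve and Schwann cells summed to 3.28 and 3.25 TPM with 0 of 8 detected, and those of placenta to 0.02 and 0 TPM with 0 of 3 detected. Some other marker sums differed between the replicates: smooth muscle had 319 and 654 TPM, epicardium 35.6 and 61.5, lung 3.90 and 0.22, and thymus and lymphoid cells 4.34 and 0.01. Epicardial markers did not move together. Wt1 (1.89 and 6.55 TPM), Upk1b (5.01 and 20.52) and Krt19 (5.85 and 13.75) were higher in replicate 2. Upk3b (18.33 and 16.76) and Tbx18 (4.49 and 3.91) were lower there. In bulk tissue, fewer cells of a type and less RNA per cell cannot be told apart.

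Imprinted genes are expressed from the copy inherited from only 1 parent, because DNA methylation laid down in egg or sperm differs between the parental copies of a control region. They lie in clusters, where a single such region governs several genes and often a long noncoding RNA that silences its neighbours. Many of them set fetal growth: the paternally expressed growth factor Igf2 is opposed by the maternally expressed Igf2r, which carries it to lysosomes, and mouse embryos without Igf2r overgrow and have abnormal hearts. The values here are totals over both parental copies and do not show which copy was read. Which parent's copy is named below is textbook background.

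Of the 39 matched members, 26 were detected, meaning at 1 TPM or more in both replicates. That is 66.7% of members, against 24.2% of all 43346 genes. All genes include small RNA genes without a measurement, such as 58 microRNA and 23 small nucleolar RNA genes described below. The matched members are all coding or long noncoding genes, so the 2 shares are not over like genes. Mkrn3 reached 1 TPM in replicate 1 only, and 12 members were below 1 TPM in both. By mean level, 7 members were above 100 TPM, 8 between 10 and 100, 12 between 1 and 10, and 12 below 1. The members' TPM added up to 2915 in replicate 1 against 2304 in replicate 2, and they took 0.817% and 0.684% of gene counts. Deposited TPM is scaled over all rows. When it was rescaled over nuclear protein-coding and long noncoding genes only, 28 members were detected and their sum was larger, as given at the end. Levels here thus cannot be compared directly with TPM scaled over those classes. The 7 highest, H19, Mest, Cd81, Gnas, Grb10, Plagl1 and Igf2r, made up 91.3% and 89.3% of the members' TPM.

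**Figure D1:**
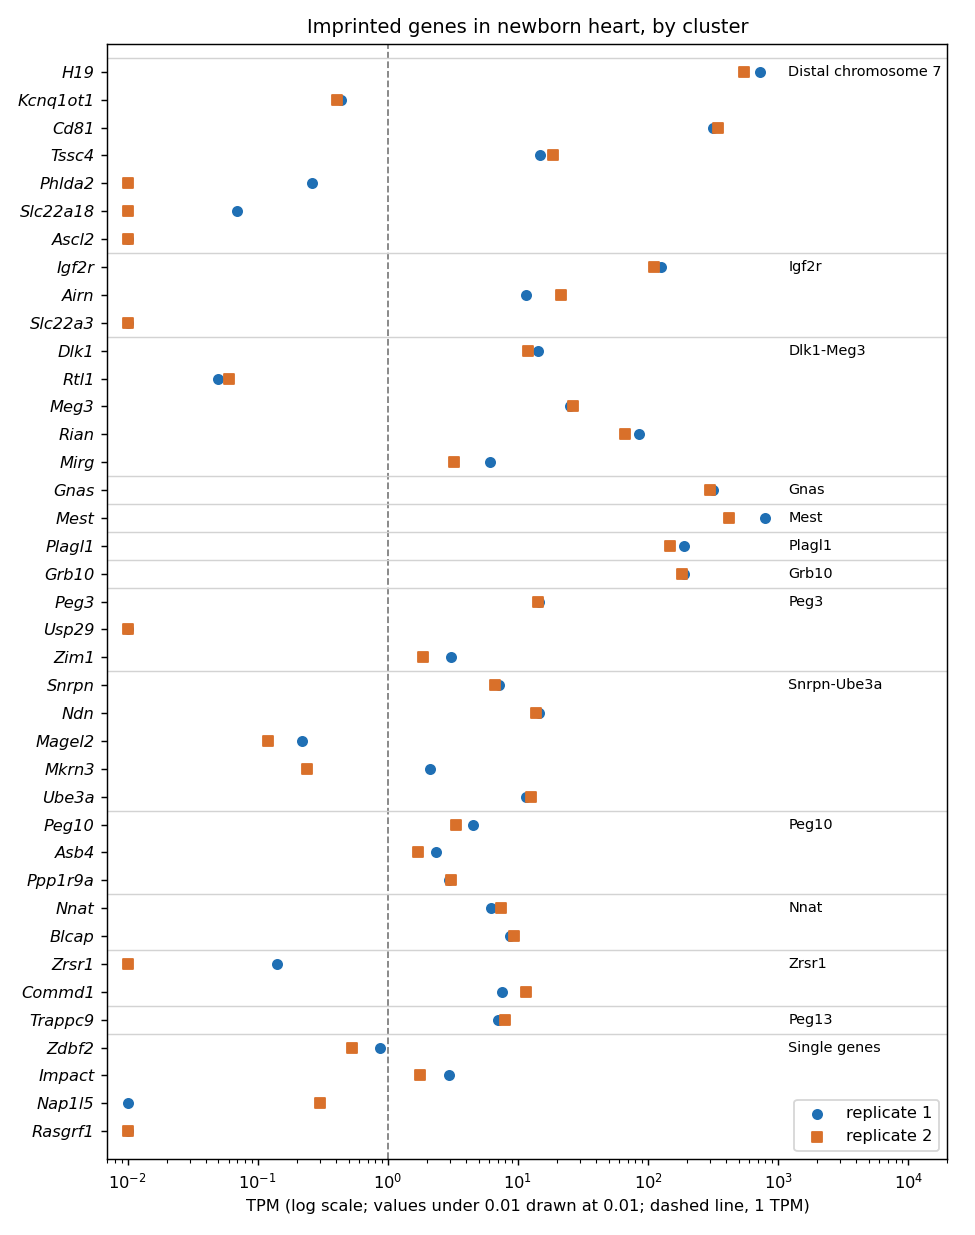
TPM of the 39 matched members on a log axis, grouped by chromosomal cluster; circles are replicate 1, squares replicate 2, and values under 0.01 are drawn at 0.01. The 7 members above 100 TPM lie in 6 clusters, and 12 members are left of the dashed line at 1 TPM in both replicates.

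The distal chromosome 7 cluster held the highest member. H19 (ENSMUSG00000000031, GRCm38 chr7:142575529-142578143, minus strand), a maternally expressed noncoding RNA that hosts a microRNA, had 727.00 TPM in replicate 1 and 547.90 in replicate 2 (139050 and 111375 counts). It was the most abundant member by mean level, and it was lower in replicate 2. Its neighbour Igf2, which is not a member, had 427.71 and 348.78 TPM, so H19 was above Igf2 in both replicates, with log2 ratios of 0.77 and 0.65. With the length of each gene's longest transcript, an alternative described below, the ratios were 1.81 and 1.79.

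The microRNAs that H19 and Mest host are shown here because they are shorter than the RNA kept in the libraries. They are RefSeq mature sequences, 5′ to 3′, with the seed (bases 2 to 8) in capitals, from chr7:142577078-142577099 and chr7:142577112-142577133 for miR-675 and chr6:30741314-30741336 and chr6:30741354-30741375 for miR-335 (GRCm38.p6).
miR-675-3p: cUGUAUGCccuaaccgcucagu
miR-675-5p: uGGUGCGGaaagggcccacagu
miR-335-5p: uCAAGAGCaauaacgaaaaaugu
miR-335-3p: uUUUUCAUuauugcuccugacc
No seed is shared among these 4.

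Genes of the neighbouring Kcnq1ot1 domain ranged over the whole scale. Cd81, a tetraspanin of the cell surface, had 318.02 and 347.83 TPM, and Tssc4, which lies beside it, had 14.88 and 18.48. Both are known as imprinted mainly in placenta, and Cd81 was higher in each replicate by 4.41 and 4.23 on the log2 scale. Kcnq1ot1, the paternally expressed noncoding RNA that silences this domain, had 0.44 and 0.41 TPM. Those low levels came from 3928 and 3865 counts over an effective length of 84106 nucleotides, more counts than Peg10 or Snrpn had. Phlda2, a gene that restrains placental growth, had 13 counts in replicate 1 and 0 in replicate 2, and the transporter gene Slc22a18 had 9 and 0. Ascl2, a trophoblast transcription factor, had 0 counts in both, where the floor of 3 counts stands for 0.0215 and 0.0205 TPM.

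On chromosome 17, Igf2r (chr17:12682406-12769664, minus strand) had 126.16 and 112.04 TPM, from 114324 and 106482 counts. Airn, the paternally expressed RNA that runs against Igf2r and silences the paternal copy, had 11.45 and 21.44 TPM. Igf2r exceeded Airn by log2 ratios of 3.45 and 2.38, and the ratio was smaller in replicate 2, where Airn was higher. The deposited Airn transcripts are spliced models of 435 to 1375 nucleotides within chr17:12741311-12860136. Airn RNA outside their exons is thus not in these levels. In replicate 2 the model with the largest share was Airn-205, which starts inside that span, at 12815931. The libraries are stranded, but whether strand was used in counting is not given in the sources used here, so reads of the overlap may be split wrongly between the genes. Slc22a3, an organic cation transporter silenced by Airn in placenta, had 3 counts in each replicate.

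The Dlk1-Meg3 cluster on chromosome 12 carried more noncoding than coding RNA. Rian, a maternally expressed host of small nucleolar RNAs, had 85.35 and 67.07 TPM, Meg3, a nuclear noncoding RNA, 25.04 and 26.31, and Mirg, a host of microRNAs, 6.09 and 3.23. Dlk1, the paternally expressed Notch-like membrane protein of the cluster, had 14.38 and 11.89 TPM. Rtl1, a retrotransposon-derived gene needed in placenta, had 0.05 and 0.06 TPM from 29 and 42 counts, well below Meg3 in both replicates. The order of Dlk1 and Meg3 depends on which length divides the counts. Meg3 was higher by TPM, with log2 ratios of Dlk1 over Meg3 of -0.80 and -1.14. It was lower when each gene's counts were divided by the length of its longest transcript, with 1.14 and 0.36. The longest Dlk1 transcript, of 4653 nucleotides, had only 19.65 and 0 counts, while Dlk1-205, of 1703 nucleotides, held 86.2% and 82.8%. The longest Meg3 transcript, of 14548 nucleotides, held 29.1% and 22.7% of counts.

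Between the start of Meg3 and the end of Mirg (chr12:109541001-109749460) the annotation places 58 microRNA and 23 small nucleolar RNA genes. All of these rows had an effective length of 0 and 0 counts in both replicates, so the files hold no measurement of them. RefSeq placed 50 mature microRNAs from 27 hairpins within 6 host members: 26 in Mirg, 11 antisense to Rtl1, 6 in Rian, 3 in Meg3 and 2 each in H19 and Mest. They had 49 different seeds. Shown are the arms of miR-127, as an example of those antisense to Rtl1, where the microRNAs are fully complementary to the coding RNA (chr12:109592854-109592875 and chr12:109592888-109592909) and the pair in Mirg that share the only repeated seed (chr12:109735669-109735692 and chr12:109739132-109739152), all on the plus strand of GRCm38.p6, with the seed in capitals.
miR-127-5p: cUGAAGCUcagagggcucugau
miR-127-3p: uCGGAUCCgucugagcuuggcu
miR-453: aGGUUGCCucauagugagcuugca
miR-496a-5p: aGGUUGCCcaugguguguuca
The last 2 share the seed GGUUGCC and differ after it.

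Mest (chr6:30723547-30748465), a paternally expressed protein of the hydrolase fold, had 795.78 TPM and 80293 counts in replicate 1 and 420.61 TPM and 46839 counts in replicate 2. It had the largest difference among the 7 most abundant members. Plagl1, a zinc finger transcription factor that regulates other imprinted genes, had 188.39 and 148.44 TPM. Grb10, an adaptor that restrains insulin and IGF receptor signalling, had 190.47 and 182.43. Its levels lay close together by TPM, with a log2 difference of -0.08, and less so by counts scaled to the library total, with -0.29 (77622 and 66936 counts).

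Genes of the Peg3 cluster on chromosome 7 differed widely. Peg3, a zinc finger protein, had 14.58 and 14.22 TPM from 12419 and 12282 counts. Zim1, a maternally expressed zinc finger gene, had 3.05 and 1.88. Peg3 was above Zim1 by 2.22 and 2.85 on the log2 scale. Usp29, a deubiquitinase gene that starts next to Peg3 on the other strand, had 1 count in replicate 1 and 0 in replicate 2. The RefSeq starts of the genes are 164 nucleotides apart, and their promoter windows overlap by 263 nucleotides. The only Usp29 transcript in the deposited table, of 2610 nucleotides, lies at chr7:6961160-6963769, far from that start, so the counts do not cover exons at the shared promoter. The 250 bases before the Peg3 start (chr7:6730420-6730669, minus strand, GRCm38.p6), which also hold the Usp29 start, are shown with CpG pairs in capitals.
Peg3 promoter: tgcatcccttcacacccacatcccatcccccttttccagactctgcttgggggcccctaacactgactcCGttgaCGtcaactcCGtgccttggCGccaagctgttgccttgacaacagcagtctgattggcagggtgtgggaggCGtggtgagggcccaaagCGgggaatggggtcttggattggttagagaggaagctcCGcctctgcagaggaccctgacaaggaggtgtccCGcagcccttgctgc
The stretch holds 8 CpG pairs.

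In the Snrpn-Ube3a region of chromosome 7, Ndn (necdin), a growth-suppressing protein of the MAGE family, had 14.54 and 13.88 TPM. Ube3a, a ubiquitin ligase imprinted in neurons, had 11.50 and 12.72, and Snrpn, a spliceosome protein, 7.10 and 6.72. These 3 lay close together in the replicates, with log2 differences from -0.10 to 0.12. Magel2, another MAGE gene, had 0.22 and 0.12 TPM, below Ndn by 5.52 and 5.99 on the log2 scale with 0.1 TPM added, and by a mean of 3.70 with 1 TPM added. Mkrn3, a RING finger protein, had 2.11 and 0.24 TPM from 503 and 59 counts. Snurf, which shares transcripts with Snrpn, was at 0 counts in both replicates, and the overlapping gene Gm38393 had 354 and 842 counts, so reads of this locus may be divided among the 3.

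The Peg10, Nnat, Zrsr1 and Peg13 clusters had members between 1 and 12 TPM, apart from Zrsr1. Peg10, a retrotransposon-derived gene needed in placenta, had 4.50 and 3.33 TPM, Asb4, an ankyrin repeat protein, 2.36 and 1.72, and Ppp1r9a, an actin-binding protein, 2.95 and 3.05. Nnat, a small membrane protein, had 6.22 and 7.37, and Blcap, in whose intron it lies, 8.64 and 9.39, so neither stood clear of the other. Commd1, a protein of copper handling and sorting, had 7.61 and 11.54 TPM, while Zrsr1, a splicing factor gene in its intron, had 43 counts and 1 count. Trappc9, a protein of vesicle transport, had 7.04 and 7.98.

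Impact, which restrains a kinase that controls translation, had 2.95 and 1.76 TPM, and Zdbf2, a zinc finger gene, 0.87 and 0.53. Nap1l5 had 0 counts in replicate 1 and 54 in replicate 2, and Rasgrf1, a Ras exchange factor, 0 in both. In all, 6 members were at 0 counts in at least 1 replicate, where a floor of 3 counts corresponds to between 0.00934 and 0.0578 TPM.

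Neighbouring genes were then set against each other within each replicate, as log2 ratios of TPM with 0.1 added. A pair was called unequal when both ratios pointed the same way and were larger than 2.15. That limit is the 95th percentile of the difference between the replicates over the 11594 genes whose mean TPM was at least 1. It measures the spread of the same gene, and how often any 2 genes differ by more was not computed. The number of calls therefore cannot be set against other gene pairs. Of 17 pairs that could be compared, 8 were called: Igf2r over Airn, Igf2r over Slc22a3, Cd81 over Tssc4, Peg3 over Zim1, Peg3 over Usp29, Ndn over Magel2, Commd1 over Zrsr1 and Meg3 over Rtl1. In those with Slc22a3, Usp29, Zrsr1, Rtl1 and Magel2 the lower gene was near 0, and the size of the ratio depends on the added 0.1. Igf2r over Airn sets Igf2r against the exons of the Airn models only. With the 99th percentile, 4.85, 5 pairs passed, and Igf2r over Airn, Cd81 over Tssc4 and Peg3 over Zim1 did not. With the length of the longest transcript, and a limit of 1.70, 10 pairs passed: the same 8 and also H19 over Igf2 and Rian over Meg3.

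**Figure D2:**
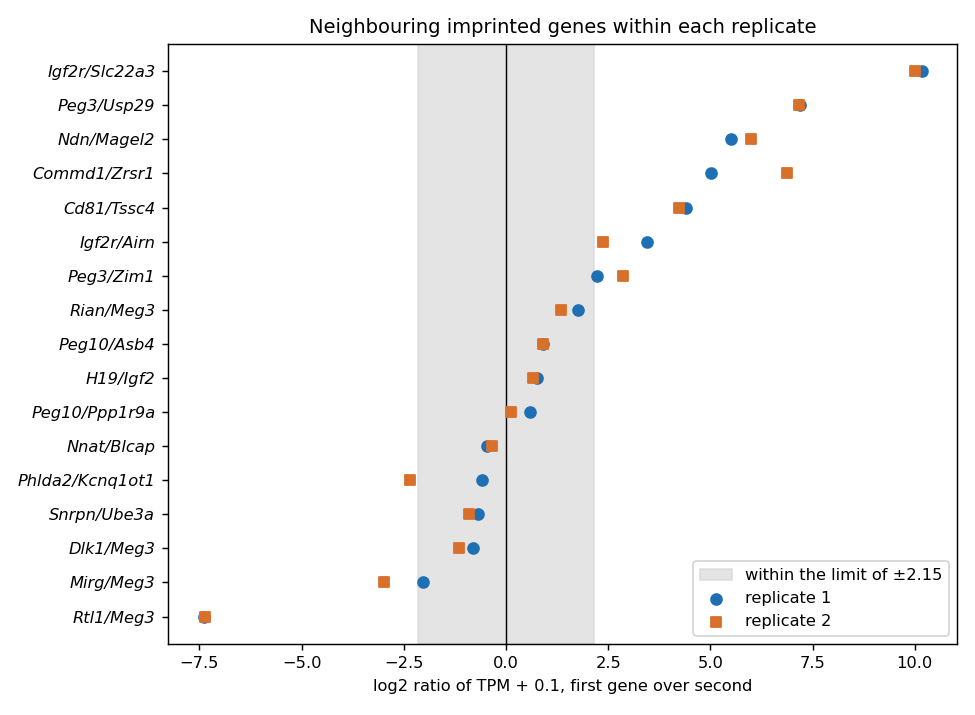
Log2 ratio of TPM plus 0.1 for 17 pairs of neighbouring genes; circles are replicate 1, squares replicate 2, and the grey band is the limit of 2.15 to either side. In 8 pairs both points are outside the band on the same side, and 7 of these have the first gene higher.

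The other 9 pairs were not called. Snrpn was below Ube3a by 0.69 and 0.91 on the log2 scale, Nnat below Blcap by 0.47 and 0.35, and Peg10 above Asb4 by 0.90 and 0.91. Each kept its sign in both replicates without passing the limit. The gap between Peg10 and Asb4 was 0.04 and 0.08 with the longest transcripts' lengths, and Snrpn and Ube3a passed the limit by counts not divided by length, with a mean of -2.35. Mirg lay below Meg3 by 2.02 and 2.99, and Phlda2 below Kcnq1ot1 by 0.58 and 2.35, each past the limit in replicate 2 only.

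The replicates were compared gene by gene as the log2 ratio of TPM plus 0.1 in replicate 2 over replicate 1, centred on the median of the 11594 genes. With 1 group there is no test between conditions. A two-sided exact permutation of signs over the 2 replicates has 0.5 as its smallest p, so these are descriptions. Of 27 members at a mean of 1 TPM or more, 0 were 2-fold or more higher in replicate 2, where 10.1% of all genes were. Only Mkrn3 was 2-fold or more lower, with -2.72, where 8.90% of all genes were. The median absolute log2 difference was 0.29 over members and 0.40 over all genes tested. These medians are not matched for level. Of the 27 members, 7 had a mean above 100 TPM and 8 between 10 and 100. The 95th percentile of the absolute difference was 2.15 over all genes tested and 1.29 over those at a mean of 10 TPM or more.

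Somewhat more members were lower than higher in replicate 2, and how many depended on the setting. Of the 27 members, 17 (63.0%) were below 0, where the centring puts the median of all genes, and the members' median difference was -0.10. By counts scaled to the library total 16 were below 0. Among members at a mean of 5 TPM or more it was 11 of 20 (55.0%), near an even split. After Mkrn3 the lowest were Mest with -0.94, Mirg with -0.92, Impact with -0.74 and Zim1 with -0.69. Airn with 0.88 and Commd1 with 0.57 were the highest. The deposited intervals, which cover estimation from reads and not the spread between animals, did not overlap for 20 of the 27, with 14 lower and 6 higher in replicate 2. Over all genes tested, 35.6% were lower and 37.7% higher by that measure.

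By parental class and by TPM, 6 of 7 maternally expressed members at a mean of 1 TPM or more were lower in replicate 2, as were 9 of 11 paternally expressed ones. The centring puts the median of all genes at 0. These classes are small, and genes of the same cluster are counted singly. Rian, a maternally expressed member counted as lower, was higher by counts scaled to the library total, with 0.47. Of the 9 paternally expressed members counted as lower, Peg3, Ndn and Snrpn were near 0. They had -0.06, -0.09 and -0.10, and their deposited intervals overlapped. Members with isoform-dependent or tissue-dependent imprinting were lower in 2 of 7, and those imprinted mainly in placenta in 0 of 2. Paternally expressed members summed to 1063.72 and 651.32 TPM, of which Mest alone had 795.78 and 420.61. Maternally expressed ones summed to 975.38 and 760.15, most of it H19. Smooth muscle, epicardial, lung and lymphoid marker sums differed between the same libraries, as given above, and their part in these differences was not tested.

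**Figure D3:**
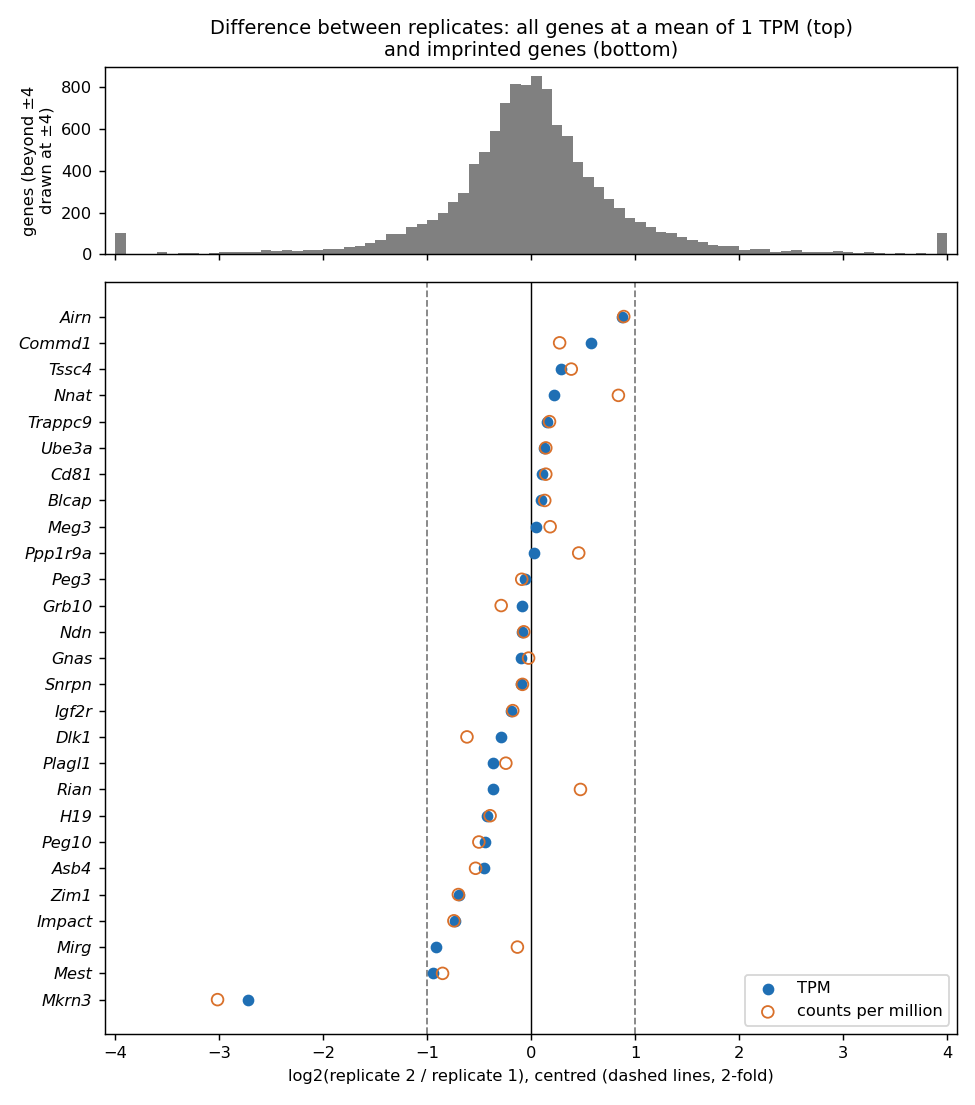
Centred log2 difference of replicate 2 over replicate 1: above, a histogram of the 11594 genes tested, with values beyond 4 drawn at 4; below, the 27 members, with filled points for TPM and open points for counts scaled to the library total. Only Mkrn3 lies beyond the 2-fold lines, and Rian has its points on opposite sides of 0.

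For some members TPM and counts did not move together. Rian was lower in replicate 2 by TPM, with -0.37, and higher by counts scaled to the library total, with 0.47. Its estimated effective length was 697 nucleotides in replicate 1 and 1238 in replicate 2. Mirg was at -0.92 by TPM and -0.13 by counts, and its effective length was 770 and 1330. Nnat was at 0.22 by TPM and 0.84 by counts, with 564 and 862 nucleotides. These lengths are averages over transcripts, so a different mix of transcripts changes them. By counts, 0 members were 2-fold higher and 1, Mkrn3 again, was lower, where 7.83% and 6.69% of all genes were.

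Short transcript models carried much of the TPM of some members. The main Plagl1 transcript, Plagl1-202 with 5260 nucleotides, held 77.2% and 85.2% of the gene's counts but only 14.1% and 16.8% of its TPM. Transcripts under 1000 nucleotides held 81.3% and 80.5% of Plagl1 TPM from 13.9% and 11.5% of its counts. For Mest, a model of 836 nucleotides held 73.2% and 69.4% of TPM, while Mest-211 with 2554 nucleotides held 56.6% and 59.7% of counts. TPM and counts thus name different leading transcripts in both genes.

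Levels were therefore also computed from each gene's counts over the length of its longest transcript, an alternative added after the data were seen. Plagl1 then had 34.5 and 29.3 TPM, Mest 336 and 187, and Rian 7.63 and 10.6. Meg3, whose longest transcript has 14548 nucleotides, had 2.05 and 2.34 and moved from rank 9 to rank 23 among the members. H19, with 660 and 503, stayed first, and Igf2r, with 126 and 112, hardly moved. Both settings left 26 members detected. The longest transcript can hold few of a gene's counts, as in Dlk1, so these levels can be too low.

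**Figure D4:**
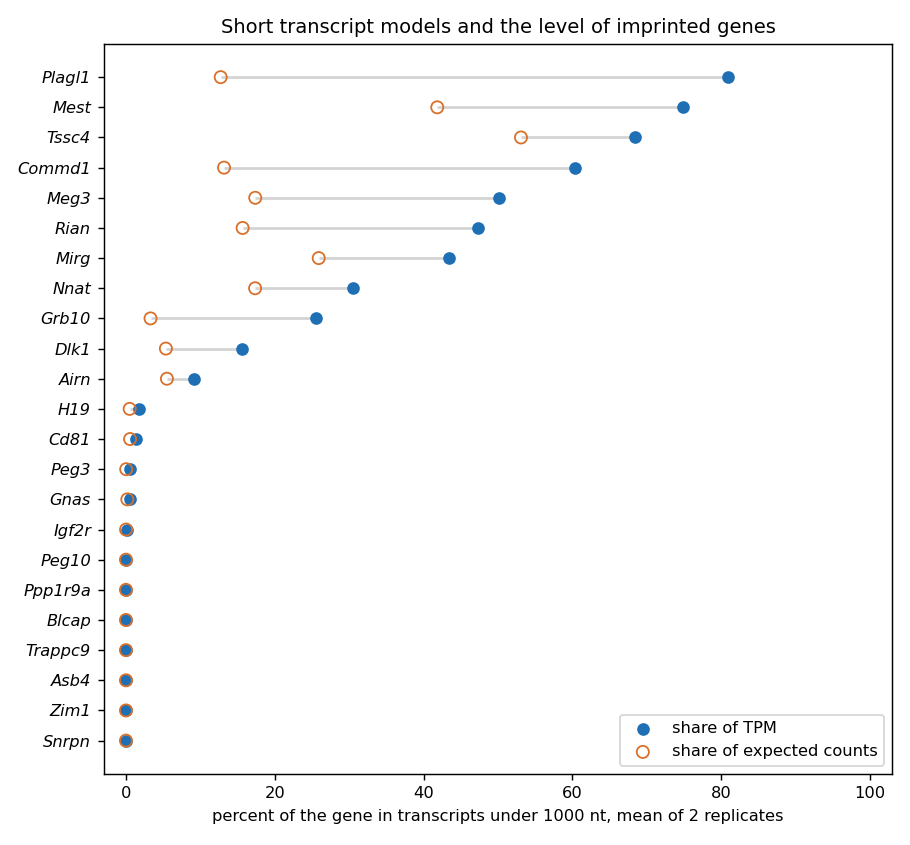
Percent of a gene's TPM (filled points) and of its expected counts (open points) in transcripts under 1000 nucleotides, as the mean of 2 replicates, for 23 members with several transcripts. Plagl1, Mest and Tssc4 are highest by TPM, and Snrpn and Zim1 are at 0.

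Leading transcripts, those with the largest share of a gene's TPM, were the same in both replicates for 16 of the 23 members. Over all 8394 genes of this kind, 66.0% had the same leading transcript. The 7 members whose leading transcript differed were Airn, Rian, Mirg, Plagl1, Nnat, Blcap and Commd1. By share of expected counts the leader was the same for 18 of the 23, and for 76.3% of all genes of this kind. Rian, Plagl1 and Commd1 then kept their leader, and Peg10 did not. In Airn, Airn-201 held 70.9% of TPM in replicate 1 and 38.7% in replicate 2, and Airn-205 held 28.4% and 43.7%. In Blcap, Blcap-202 held 76.6% and 41.3%, and Blcap-201 held 23.4% and 58.7%. By contrast Igf2r-201 held 99.8% in both, and Cd81-201 97.8% and 99.5%.

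Gnas on chromosome 2 (ENSMUSG00000027523, chr2:174284320-174346744, plus strand) is a single gene with several starts that differ in imprinting. Its best known product, Gs-alpha, couples receptors to cyclic AMP and is read from both copies in most tissues. The Nesp start is read from the maternal copy, and the XLas and exon 1A starts from the paternal copy. The gene had 314.77 and 299.08 TPM from 46779 and 48428 counts, and these totals were alike.

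Sequences of 3 of these starts are shown because the results differ among them: 250 bases before the Nesp start (chr2:174284070-174284319), the exon 1A start (chr2:174327499-174327748) and the Gs-alpha start (chr2:174329756-174330005), from RefSeq on the plus strand of GRCm38.p6, with CpG pairs in capitals.
Nesp promoter: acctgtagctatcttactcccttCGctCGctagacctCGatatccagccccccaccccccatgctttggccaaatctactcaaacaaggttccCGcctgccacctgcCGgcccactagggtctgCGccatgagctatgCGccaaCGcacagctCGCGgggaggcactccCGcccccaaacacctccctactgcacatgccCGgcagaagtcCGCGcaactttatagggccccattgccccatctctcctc
Exon 1A promoter: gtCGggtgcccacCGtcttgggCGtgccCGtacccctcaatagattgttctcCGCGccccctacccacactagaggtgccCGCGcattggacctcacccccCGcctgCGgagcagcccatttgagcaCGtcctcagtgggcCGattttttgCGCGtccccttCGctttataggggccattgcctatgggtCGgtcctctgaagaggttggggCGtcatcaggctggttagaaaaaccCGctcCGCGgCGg
Gs-alpha promoter: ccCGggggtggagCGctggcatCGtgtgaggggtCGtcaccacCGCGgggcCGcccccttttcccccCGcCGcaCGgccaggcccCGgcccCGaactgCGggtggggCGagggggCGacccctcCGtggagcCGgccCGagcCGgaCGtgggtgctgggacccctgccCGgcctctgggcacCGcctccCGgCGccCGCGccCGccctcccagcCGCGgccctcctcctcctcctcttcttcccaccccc
They hold 14, 21 and 29 CpG pairs, an observed over expected ratio of 0.69, 0.85 and 0.74. The exon 1A stretch precedes a RefSeq start at 174327749. The deposited transcript Gnas-221, described below, starts at 174327699, inside that stretch.

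Transcripts were grouped by these starts. The 4 from the Gs-alpha start had 209.00 TPM in replicate 1 and 257.71 in replicate 2, which was 66.4% and 86.2% of the gene. The 6 from the exon 1A start had 91.25 and 25.08 TPM, or 29.0% and 8.39%. The exon 1A group was thus lower in replicate 2 and the Gs-alpha group higher, while the gene's total hardly differed. Counts moved the same way, with 11362 and 3467 for exon 1A and 31642 and 40827 for Gs-alpha. All groups share downstream exons, so the division among them is an estimate.

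The smaller groups lay close together in the replicates. The 5 transcripts of the Nesp start had 9.34 and 9.71 TPM, 2.97% and 3.25% of the gene. The 7 of the XLas start had 4.41 and 4.80, or 1.40% and 1.60%. Nespas, the RNA antisense to Nesp, had 0.29 and 1.00 TPM.

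**Figure D5:**
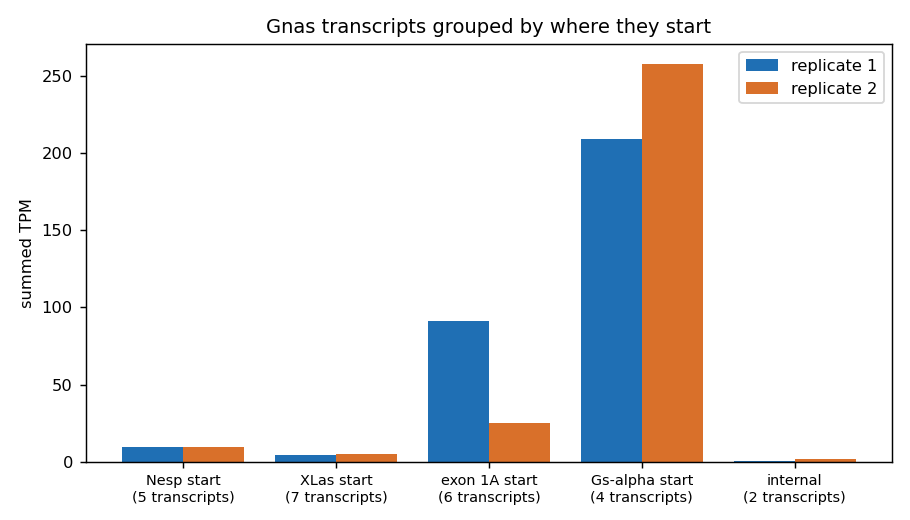
Summed TPM of Gnas transcripts by where they start, with a bar for each replicate. The Gs-alpha start is highest in both replicates, and the exon 1A start has 91.25 TPM in replicate 1 and 25.08 in replicate 2.

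Within these groups single transcripts dominated. Gnas-208, from the Gs-alpha start, held 54.0% and 76.3% of the gene's TPM, with 170.00 and 228.14 TPM. It contains an exon of 45 nucleotides (chr2:174336747-174336791), which separates the long from the short form of Gs-alpha. Gnas-206 and Gnas-207, which lack it, held 4.56% and 5.30%, and 7.83% and 4.59%. The long form was thus above both short forms in each replicate. Of the other transcripts at 1% or more, Gnas-221 from exon 1A held 28.5% and 8.02%, Gnas-211 from Nesp 2.97% and 2.99%, and Gnas-203 from XLas 1.36% and 1.17%.

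Promoter windows of RefSeq, from 250 bases before to 50 after a start, were found for 34 members, 48 windows in all. The hexamer TGCCGC, which the imprint-protecting zinc finger protein ZFP57 binds when methylated, was searched on both strands. It was in 11 of 48 member windows (22.9%) and in 11.6% of all 32851 windows. Among the 11 are Mest windows from starts at 30738050 and 30738053, which overlap and hold the same matches. By gene, 10 of 34 members (29.4%) and 13.1% of all genes had it in at least 1 window. Members had 48 windows for 34 genes and all genes 32851 windows for 27025, and more windows give more places for a match. Member windows also held more CpG, with a median observed over expected ratio of 0.61 against 0.38. The hexamer itself contains a CpG, and the part of CpG content in its higher share was not tested. A core of the motif of CTCF, an insulator protein, was searched on both strands too, with overlap of the hexamer allowed, and was in 0 member windows and in 0.0365% of all windows. H19 had no window and was not searched. Only 12 of all 32851 windows had a match, so 0 of 48 member windows cannot show a difference. These matches are letters in a window and not binding sites.

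Mest is shown because it has the hexamer in 2 places before its main start (chr6:30737800-30738049, plus strand, GRCm38.p6). Both are written as GCGGCA, the reverse complement, in capitals.
Mest promoter: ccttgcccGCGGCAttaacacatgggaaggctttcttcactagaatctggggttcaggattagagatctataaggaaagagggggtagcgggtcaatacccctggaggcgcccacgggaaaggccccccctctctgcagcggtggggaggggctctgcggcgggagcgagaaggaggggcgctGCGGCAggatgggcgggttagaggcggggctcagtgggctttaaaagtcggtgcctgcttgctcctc
The other members with the hexamer were Commd1, Grb10, Meg3, Nap1l5, Nnat, Plagl1, Snrpn, Zdbf2 and Zim1, whose mean levels ranged from under 1 TPM in Nap1l5 and Zdbf2 to over 100 TPM in Grb10 and Plagl1.

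Another list held 40 further imprinted genes. Of 39 matched, 22 were detected, where 24.2% of all genes were, small RNA genes included. The highest were Igf2, then Ddc, an enzyme of monoamine synthesis with a heart-specific imprinted form, at 80.57 and 65.52 TPM, Dcn, a matrix proteoglycan, at 61.83 and 81.56, and Nap1l4, a histone chaperone, at 33.68 and 38.52. Of 23 at a mean of 1 TPM or more, Qpct was 2-fold or more higher in replicate 2 (2.18 and 6.68 TPM) and Inpp5f lower (2.82 and 1.27), where 10.1% and 8.90% of all genes were. By counts scaled to the library total Inpp5f was at -0.35, so its call was lost, and Qpct at 1.59. At 0 counts in both replicates were 7 genes, Ins2, Dio3, Snurf, Gpr1, Calcr, Slc22a2 and Kcnk9.

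Of 22 genes linked to setting, keeping or erasing imprints, 17 were detected, where 24.2% of all genes were, small RNA genes included. They were led by Trim28, the corepressor that ZFP57 recruits, at 73.37 and 81.54 TPM, Ehmt2, a histone methyltransferase, at 24.96 and 21.23, Dnmt1, the maintenance DNA methyltransferase, at 11.45 and 7.22, and Dnmt3a, a de novo methyltransferase, at 8.54 and 8.44. Of 18 at a mean of 1 TPM or more, Zfp445 (2.10 and 4.55) and Arid4a (0.83 and 1.83) were 2-fold or more higher in replicate 2, and Smchd1 (10.66 and 3.74) was lower, beside the same 10.1% and 8.90% of all genes. By counts Arid4a was at 0.75, so its call was lost, while Zfp445 was at 1.10 and Smchd1 at -1.02. Dnmt3l and Dppa3, which act in germ cells and the early embryo, had 0 counts in both replicates.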

How the data were processed

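Total RNA-seq of 2 newborn heart libraries was analysed from gene and transcript tables. Per the labels, reads were mapped to the mouse assembly mm10; per the deposited notes the annotation was GENCODE M4, and the column names are those of RSEM. The sources used here do not give the aligner, any version or the level of the intervals.

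The authors deposited expected counts, which are estimated and not normalized between libraries. The deposited TPM values are expected counts over effective length, scaled to a fixed total. FPKM values, scaled by the authors by length and library, served as an alternative. Per the file headers, transcript shares are a percent of the gene's TPM. The deposited interval bounds, read as a signal with no normalization of their own, are in TPM.

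Symbols and positions were taken from GENCODE M21 on GRCm38, which is the same assembly, matched by identifier without version. Of 226 member transcripts, 222 were found there by name, and 197 had the same length in both releases. A gene was detected at 1 TPM in both replicates. Differences used a pseudocount of 0.1 TPM, and a 2-fold difference (1 on the log2 scale) was counted. The difference script was tested on simulated data.

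The named genes were all members, every Gnas transcript at 1% or more of the gene, leading transcripts, and of the other lists the 4 highest, those at 0 counts and those 2-fold apart. The members, lists and pairs were chosen with earlier results of these data known. Calculations used Python 3.11.15, pandas 2.3.3 and numpy 2.4.6. Expected counts were rounded to whole numbers for TMM factors (edgeR 4.0.16) and size factors (DESeq2 1.42.0), both in R 4.3.3. Floors of 3 counts cover counting error only. Alternatives covered thresholds, pseudocounts, filters, units, lengths, scaling and single replicates.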

Additional observations from a re-analysis of the deposited data

How the results depend on the processing

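The number of members detected was 20 at a threshold of 5 TPM, 31 at 10 expected counts and 26 to 28 under the other settings, and was 26 to 27 with either replicate alone. Without a filter on low values 1 member was 2-fold higher in replicate 2 and 3 were lower, and at a mean of 5 TPM or more 0 were lower, since Mkrn3 was then not counted. Counts were the same as reported under the other pseudocount, TMM and DESeq2 factors, FPKM, posterior means, no centring, rescaling and the longest transcript's length. The median difference of members stayed below 0 under all of these, between -0.10 and -0.07. At the 99th percentile 5 pairs were called, and 8 to 11 under the other settings. The share of Gnas-208 was 54.0% to 76.3% with either replicate alone. Members summed to 2609 TPM as the mean of the replicates and to 2304 to 2915 with either alone. The sum was 9123 when TPM were rescaled over nuclear protein-coding and long noncoding genes, and 1708 with the length of the longest transcript. No paired analysis was possible because there is only 1 group. Differences rest on 1 library a side and have no replicate check, and antisense or overlapping genes may share reads.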
